A study of Mus musculus with 12 samples.

Results

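The replication-dependent histone genes were taken as all genes of the count table whose symbol begins with Hist1h, Hist2h, Hist3h or Hist4h, which gave 70 genes of the 55335 in the table. By family they were 6 H1, 20 H2A, 19 H2B, 12 H3 and 13 H4 genes. By place in the genome 56 belonged to Hist1 on chromosome 13, 10 to Hist2 on chromosome 3, 3 to Hist3 on chromosome 11 and 1 to Hist4 on chromosome 6. The annotation lists 3 of them (Hist1h2aj, Hist1h2al and Hist3h2bb-ps) as pseudogenes. The RNA was sequenced from hematopoietic stem cells (HSCs) of Ythdc1Δ/Δ and Ythdc1+/+ mice, to ask what loss of YTHDC1, a nuclear reader of the m6A mark on RNA, does to them. Ythdc1Δ/Δ mice were Ythdc1fl/fl and Ythdc1+/+ mice carried no floxed allele. Animals of both genotypes were C57BL/6, carried Mx1-Cre, a recombinase under an interferon-inducible promoter that is not restricted to HSCs, and received 5 injections of pIpC, an inducer of interferon. Donors were 8 weeks old according to the methods. Each genotype had 6 libraries, which were 2 libraries for each of 3 sample numbers (KO176, KO177 and KO209, and WT178, WT180 and WT207). What a number stands for (a mouse, a pool or a sort) is not given in the labels, so the spread between samples may be in part technical. According to the sample labels the molecule was polyA RNA and the cDNA came from an ultra-low input kit, of a kind that primes on poly(A). The study's methods name a different library kit, so that the reading of the levels as poly(A) RNA rests on the labels.

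These genes supply the histones that package newly copied DNA, and they are transcribed mainly in S phase. Their mRNAs usually end not in a poly(A) tail but in a short RNA hairpin, the stem-loop, which is bound by SLBP. This end is formed when the U7 snRNP and its partners cut the transcript just downstream of the stem-loop. When the cut fails or is bypassed, as is known for some of these genes in cells that leave the cell cycle, a polyadenylation signal further downstream can be used instead. A library primed on poly(A), as the labels describe, therefore measures a minor and selected part of these mRNAs, and the levels below are levels of the RNA that such a library captured and not of all histone mRNA.

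The stem-loop was searched for in the annotated transcripts by its known consensus, and 46 of the 70 members held a match of 16 bases. The most frequent form stood in 26 members of the H1, H2A, H2B and H3 families, and the form in second place stood in 7 members, all of them H4 genes. The sequences below are shown because the members differed in what lay in front of this hairpin and in how far the annotated transcript ran past it, with the stem-loop in capitals and the 14 bases before it in lower case, 5′ to 3′ on the coding strand (GENCODE vM21 transcripts, GRCm38).
Hist1h2ao: agaaaaaaaaaaaaGGCTCTTTTCAGAGCC
Hist1h2ap: agaaaaaaaaaaaaGGCTCTTTTCAGAGCC
Hist1h2bg: actcctaacccaaaGGCTCTTTTCAGAGCC
Hist1h2ac: acttcaaacccaaaGGCTCTTTTCAGAGCC
Hist1h1c: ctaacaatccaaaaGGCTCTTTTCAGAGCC
Hist1h3e: acgtaaaccaaaacGGCTCTTTTAAGAGCC
Hist1h4d: acccaaaaaccaaaGGCCCTTTTCAGGGCC
Hist2h4: cccccatccctaacGGCCCTTTTTAGGGCC
Hist3h2ba: gcccccaacccaaaGGCTCTTTTCAGAGCC

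Hist1h2ao and Hist1h2ap carried 12 A directly before the stem-loop, where no other member had more than 7. A run of 12 or more A anywhere in a transcript was found in 3 members, the last being Hist1h2ac with 15, and in 5.31% of 58797 protein-coding transcripts. In the transcripts of 23 members the annotation ended at most 74 bases past the stem-loop (median 33), and 2 of these had a polyadenylation signal (AATAAA or ATTAAA) in their last 50 bases. In another 23 members the annotated transcript ran on for 108 to 4884 bases (median 752), and 12 of these had such a signal at their end. The other 24 members had no match, and for 11 of them the annotation held the coding region alone. The line between the middle groups was drawn at 100 bases, and Hist1h3c (74 bases) and Hist1h4a (108 bases) stood closest to it on either side. This grouping was made after the counts had been seen and is used below as a description.

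The promoters also differed between families. RefSeq (GRCm38.p6) gave a window of 250 bases before to 50 after the start for 62 members, and on either strand CCAAT was present in 53 of them (85.5%, against 37.9% of 27025 promoters of all genes), TATAAA in 35 (56.5% against 14.2%) and the octamer ATTTGCAT in 13 (21.0% against 1.75%). The octamer was found in 7 of 18 H2A and 6 of 16 H2B promoters and in none of the H1, H3 or H4 promoters, and CCAAT was found in 3 of 12 H4 promoters. H2A and H2B genes stood head to head in 14 pairs, with 172 to 305 bases between the annotated starts, and no other families formed such pairs within 500 bases. Where both partners had a window, the windows overlapped, so the counts above are of windows and not of separate sites. The same octamer was counted for both partners in Hist1h2aa with Hist1h2ba, Hist1h2ae with Hist1h2bg, and Hist1h2ah with Hist1h2bk. Read along the gene, it was ATGCAAAT before H2A genes and ATTTGCAT before H2B genes. The stretch upstream of Hist1h2bg (chr13:23571217-23571399, plus strand) is shown because it lies between Hist1h2bg and Hist1h2ae, a pair in which both genes had abundant reads and a lower mean level in Ythdc1Δ/Δ, with CCAAT (or ATTGG on this strand), the octamer and TATAAA in capitals.
Hist1h2bg: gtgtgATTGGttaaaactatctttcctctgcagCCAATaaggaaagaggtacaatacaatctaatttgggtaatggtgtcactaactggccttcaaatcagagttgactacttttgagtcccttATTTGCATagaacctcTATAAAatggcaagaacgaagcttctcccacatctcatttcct
A match is a statement about letters in this window and not about binding of a factor.

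Library depth was 22481622 to 24118972 counts in Ythdc1Δ/Δ and 20809936 to 24563170 in Ythdc1+/+ libraries. Ythdc1 itself had 51.2, 67.9 and 75.0 CPM (counts per 1000000 counts in genes) in Ythdc1Δ/Δ samples and 75.2, 72.8 and 97.8 CPM in Ythdc1+/+ samples, which overlap. Its log2 fold change was -0.30, with an unadjusted p of 0.0487 and an adjusted p of 0.52 by edgeR. Counts over the whole gene do not show whether the floxed part was lost. The paper checked the knockout at the protein level, by western blot and immunofluorescence. The HSC label was read from 8 marker genes, whose summed level was 326 to 683 CPM in Ythdc1Δ/Δ and 614 to 838 CPM in Ythdc1+/+ samples, with 8 of 8 lower in Ythdc1Δ/Δ and none of them called. The summed level of 8 granulocyte genes was 12520 to 19500 CPM in Ythdc1Δ/Δ and 10450 to 12710 CPM in Ythdc1+/+ samples, with 8 of 8 higher, and thus exceeded that of the HSC markers in every sample. Of 5 tested stromal and endothelial genes all were higher in Ythdc1Δ/Δ. Lepr (mean 1.73 CPM in Ythdc1Δ/Δ and 0.295 in Ythdc1+/+) and Adipoq (2.66 and 0.306 CPM) were called. With the untested Cdh5 the list summed to 107 to 113 CPM in Ythdc1Δ/Δ against 82.5 to 95.4 CPM in Ythdc1+/+. Most of these sums was Pecam1, which overlapped (85.2 to 91.4 CPM in Ythdc1Δ/Δ and 75.0 to 92.0 CPM in Ythdc1+/+). For macrophages 6 of 6 genes were higher (sums 64.6 to 132 CPM in Ythdc1Δ/Δ against 51.2 to 73.2 CPM in Ythdc1+/+), as were 6 of 6 erythroid, 4 of 4 progenitor and 7 of 8 B lineage genes, and no list had all of its genes at 0. The part of these cells in the values below was not tested, and in bulk samples fewer cells of a type and less RNA per cell cannot be told apart.

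The 70 members together held 300867 counts, which was 0.0830% to 0.136% of a library. They summed to 1019, 1251 and 836 CPM in KO176, KO177 and KO209, against 1107, 1300 and 1065 CPM in WT178, WT180 and WT207. The means were 1035 ± 208 CPM in Ythdc1Δ/Δ and 1157 ± 126 CPM in Ythdc1+/+ samples (SD, n = 3 each), so that the difference was smaller than the SD within Ythdc1Δ/Δ, and KO177 was above 2 of the Ythdc1+/+ samples. The difference of the means was -122 CPM, and it was -22.5 CPM without KO209, -50.8 CPM without WT180 and -230 CPM without KO177. The numbers fall into an earlier and a later range, whose meaning the labels do not give. Within the earlier range KO176 and KO177 stood at 1019 and 1251 CPM against 1107 and 1300 CPM in WT178 and WT180, and in the later range there was a single sample a genotype, KO209 at 836 and WT207 at 1065 CPM.

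The reads were spread very unevenly over the members. Hist1h2ao, an H2A gene (chr13:21810465-21810944 of mm10, ENSMUSG00000094248), held 121056 counts or 40.2% of all counts of the members, and Hist1h2ap (chr13:21833026-21833507) held 24386 or 8.11%. The 12 members with the highest mean CPM held 81.9%. At the other end 54 members were below 10 CPM and 22 below 1 CPM on average over the 12 libraries, 8 had between 1 and 45 counts in all, and 5 (Hist2h2aa1, Hist2h2aa2, Hist2h2bb, Hist2h3b and Hist2h3c1) were at 0. Those 5 were exactly the members whose exons lay wholly inside other gene models of the annotation, such as Gm20632 with 1829 counts and Gm20628 with 848, and a read that falls in 2 genes is dropped under the default of the counting tool. The counts therefore do not show whether these 5 genes were transcribed. Exons of 26 members overlapped other genes, 23 of them over more than 20% of their length, among them all 20 H2A genes at 9.9% or more, and how many reads were lost in this way was not tested.

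**Figure D1:**
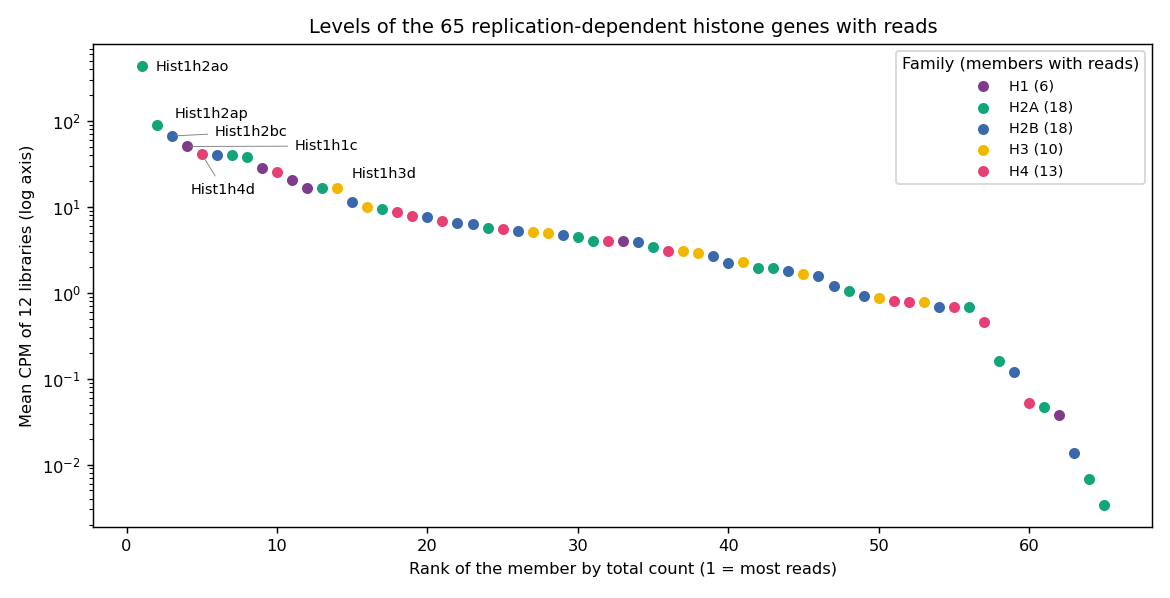
Mean CPM over 12 libraries (log axis) of the 65 members with reads, ordered by total count and coloured by family. Hist1h2ao stands at 440 CPM, Hist1h2ap at 89.2 CPM, and the leading member of each family is named.

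Per kilobase of exon, Hist1h2ao reached 886 CPM per kb in Ythdc1Δ/Δ and 947 in Ythdc1+/+ samples, and Hist1h2ap 201 in Ythdc1Δ/Δ and 168 in Ythdc1+/+ samples. The next members per length were Hist1h2bg, an H2B gene (53.8 CPM per kb in Ythdc1Δ/Δ and 77.7 in Ythdc1+/+ samples), Hist1h2ae, an H2A gene (48.7 in Ythdc1Δ/Δ and 65.8 in Ythdc1+/+), and Hist1h2bc, an H2B gene (55.4 in Ythdc1Δ/Δ and 60.7 in Ythdc1+/+). On this scale Hist1h2ao was close to the most abundant replication-independent histone genes, H2afz (930 in Ythdc1Δ/Δ and 872 in Ythdc1+/+ samples) and H3f3b (821 in Ythdc1Δ/Δ and 957 in Ythdc1+/+), which encode H2A.Z and H3.3 and whose mRNAs carry poly(A) tails. In summed CPM, the 12 replication-independent histone genes of the list stood at 8809 ± 400 in Ythdc1Δ/Δ and 8915 ± 528 in Ythdc1+/+ samples (SD, n = 3 each), well above the 70 replication-dependent ones.

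The sequences of Hist1h2ao and Hist1h2ap are almost the same, with 452 identical bases in a row of 480 and 482, and 92.7% and 92.2% of their stretches of 100 bases occurred in another gene. How far reads were divided between them by the alignment, or lost because they matched several places, cannot be read from the counts. The levels of both genes are uncertain for that reason. Hist1h2ao had 11034 and 11817 counts in the libraries of KO176, 11870 and 11724 in KO177 and 6694 and 6295 in KO209. In Ythdc1+/+ it had 8889 and 9372 counts in WT178, 14385 and 12646 in WT180 and 7987 and 8343 in WT207. Libraries of the same number thus differed by at most 1.09-fold in CPM, and KO209 was low in both. Hist1h2ap had 2800 and 1728 counts in KO176, 2542 and 4158 in KO177 and 1323 and 959 in KO209, against 1493 and 1862 in WT178, 1584 and 1935 in WT180 and 2649 and 1353 in WT207. Here libraries of the same number differed by up to 1.99-fold, while the samples ranged between 49.7 CPM (KO209) and 144 CPM (KO177). Other members shared sequence too, as 64 of 70 had some stretch of 100 bases in common with another gene and 29 had over 50% in common. The same limit applies to their levels.

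**Figure D2:**
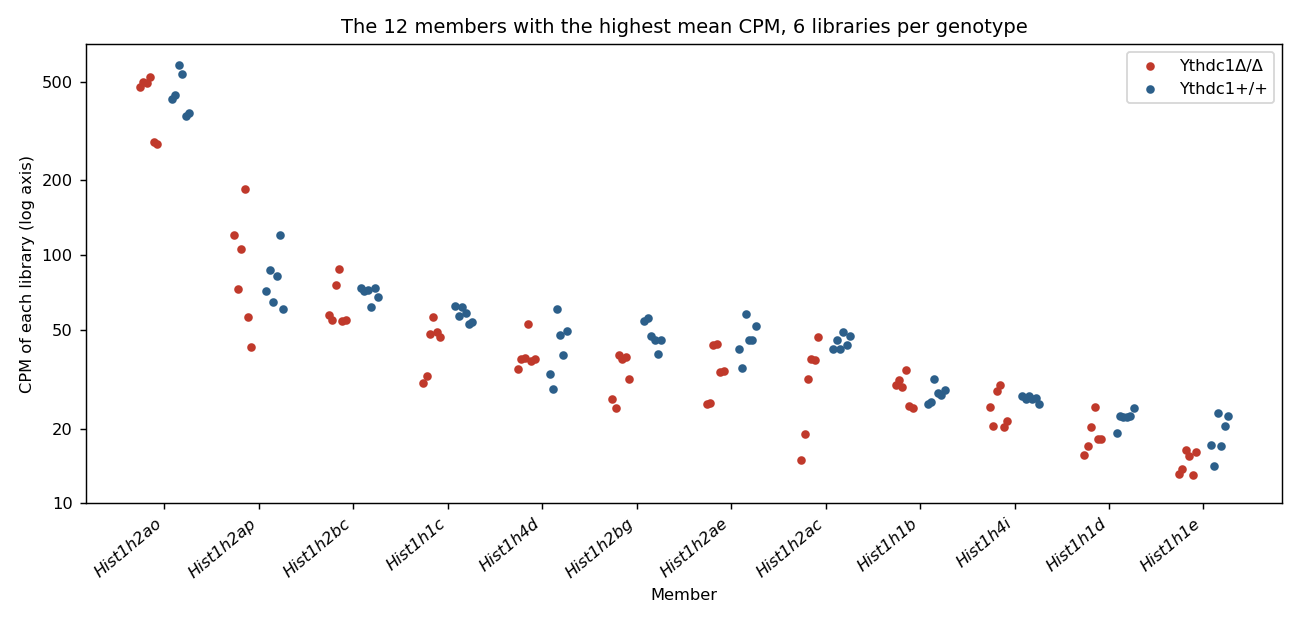
CPM of each of the 6 Ythdc1Δ/Δ (left of each pair) and 6 Ythdc1+/+ libraries (right, log axis) for the 12 members with the highest mean CPM. Hist1h2ao has 2 low Ythdc1Δ/Δ libraries, those of KO209, and Hist1h2bg has every Ythdc1Δ/Δ library below every Ythdc1+/+ library.

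Between genotypes no member passed the test. With edgeR's quasi-likelihood test on the 6 summed samples, 57 members had enough counts to be tested and 0 had a Benjamini-Hochberg adjusted p under 0.05, against 25 of 18234 genes in all (0.137%), 16 of which were higher and 9 lower in Ythdc1Δ/Δ. Of the 57 tested members 17 were higher and 40 lower in Ythdc1Δ/Δ, and their median log2 fold change was -0.14, where 51.1% of all tested genes were lower with a median of -0.01. At an unadjusted p under 0.05, 8 members were lower (5.2% of all tested genes) and 0 were higher (4.28% of all). Every Ythdc1Δ/Δ sample lay below every Ythdc1+/+ sample for 11 of the 57 (9.35% of all tested genes), and above for 0 (6.14% of all). This was read in CPM on total counts, without the TMM factors of the fit, which ranged from 0.901 (KO176) to 1.08 (KO209). The count of such members with these factors was not made. The members share sequence and stand in few clusters, so they are not independent of each other. Without KO209 the median was 0.00, with 28 of 58 tested members lower and 30 higher. In that fit 7 were lower (8.57% of all tested genes) and 3 higher (7.78% of all) at an unadjusted p under 0.05. Without WT180, 31 of 57 were lower, and at this threshold 3 were lower (4.44% of all) and 0 higher (3.47% of all). The direction of the whole set thus rested on these samples.

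Other fits called between 0 and 5 members. Treating the 12 libraries as separate samples, which counts the libraries of a number as replicates, called Hist1h2bg, Hist2h4, Hist3h2a, Hist3h2ba and Hist4h4, all lower in Ythdc1Δ/Δ, among 4.83% of all genes. Hist3h2ba was the member called by DESeq2 (1.24% of all genes), by voomLmFit, where the number entered as a random effect (0.842%), with a term for the range of the numbers (0.466%) and without KO209 (0.432%).

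Hist3h2ba, an H2B gene of the Hist3 cluster (chr11:58948920-58949533), had the largest fold change. It stood at 2.02, 2.30 and 5.16 CPM in KO176, KO177 and KO209, against 6.77, 6.57 and 8.62 CPM in WT178, WT180 and WT207, and the genotypes did not overlap. Its log2 fold change was -1.19 ± 0.28 (SE) with an adjusted p of 0.22 by edgeR, and over the alternatives the fold change ranged from -1.64 to -0.99 and the adjusted p from 0.00555 to 0.649. Its neighbour Hist3h2a (chr11:58954685-58956830), an H2A gene, stood at 6.37, 6.03 and 10.3 CPM in Ythdc1Δ/Δ and at 10.8, 13.1 and 10.8 CPM in Ythdc1+/+ samples, with KO209 the highest Ythdc1Δ/Δ sample in both genes. Its log2 fold change was -0.59 ± 0.19 (edgeR adjusted p 0.362). The pseudogene Hist3h2bb-ps, head to head with Hist3h2a, had a log2 fold change of -0.61, and the cluster summed to 11.3 ± 4.08 CPM in Ythdc1Δ/Δ and 19.8 ± 1.07 CPM in Ythdc1+/+ samples (SD, n = 3 each), or 57.0% of the Ythdc1+/+ mean. A part of Hist3h2a, 33.0% of its exon, overlapped another gene.

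Both H4 genes named by the rule from the small clusters had lower means in Ythdc1Δ/Δ too. Hist2h4 (chr3:96261682-96263311) stood at 2.83, 4.61 and 5.29 CPM in Ythdc1Δ/Δ and 7.46, 7.32 and 5.73 CPM in Ythdc1+/+ samples, with a log2 fold change of -0.66 ± 0.22. Hist4h4 (chr6:136801553-136804415) stood at 5.28, 7.60 and 6.40 CPM in Ythdc1Δ/Δ against 9.36, 10.3 and 8.53 CPM in Ythdc1+/+ samples, with a log2 fold change of -0.50 ± 0.18. In both genes every Ythdc1Δ/Δ sample was below every Ythdc1+/+ sample, and the edgeR adjusted p was 0.367 and 0.402.

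In Hist1, 4 members were lower at an unadjusted p under 0.05. Hist1h2bg (chr13:23571396-23572013) stood at 25.2, 39.0 and 35.4 CPM in Ythdc1Δ/Δ and at 54.9, 46.4 and 42.8 CPM in Ythdc1+/+ samples, with a log2 fold change of -0.50 ± 0.16 and an edgeR adjusted p of 0.357. Hist1h1c (chr13:23738808-23740367), a linker histone H1 gene and the H1 member with most reads, stood at 31.6, 52.1 and 47.8 CPM in Ythdc1Δ/Δ against 59.6, 59.99 and 53.2 CPM in Ythdc1+/+ samples, with a log2 fold change of -0.36 ± 0.16. For Hist1h3e (chr13:23561534-23562369), an H3 gene, the levels were 5.92, 9.55 and 10.3 CPM in Ythdc1Δ/Δ and 11.5, 12.1 and 11.3 CPM in Ythdc1+/+ samples, with a log2 fold change of -0.41 ± 0.18. The H1 gene Hist1h1e overlapped between genotypes, at 13.4, 15.97 and 14.5 CPM in Ythdc1Δ/Δ against 15.7, 20.1 and 21.5 CPM in Ythdc1+/+ samples (log2 fold change -0.33 ± 0.15). In Hist1h2bg, Hist1h1c and Hist1h3e the groups did not overlap in CPM on total counts, and KO176 was the lowest sample in all 4 genes. For Hist1h1c the closest samples were KO177 and WT207, whose TMM factors were 0.978 and 1.06, and division by these factors turns their order. Without KO176 the log2 fold change was -0.21 for Hist1h1c and -0.24 for Hist1h3e, with an unadjusted p of 0.144 by edgeR in both, and it was -0.37 for Hist1h2bg and -0.33 for Hist1h1e.

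The other members among the 12 most abundant showed smaller or more variable differences. Hist1h2ac, an H2A gene (chr13:23681467-23683948), stood at 17, 34.8 and 42.1 CPM in Ythdc1Δ/Δ and at 43.5, 45.3 and 45.2 CPM in Ythdc1+/+ samples, which did not overlap, but its log2 fold change of -0.50 had a SE of 0.23, KO176 being far below the rest. Without KO176 it was -0.23, and without KO209 -0.69. Hist1h2ae (chr13:23570517-23571220) stood at 25.3, 43.6 and 33.9 CPM in Ythdc1Δ/Δ against 38.5, 51.9 and 48.6 CPM in Ythdc1+/+ samples, with a log2 fold change of -0.39 ± 0.18, close to that of its head-to-head partner Hist1h2bg. In levels the partners were close in some pairs and far apart in others. Hist1h2ae had 11043 counts and Hist1h2bg 11066, and Hist1h2ac had 10365 and its partner Hist1h2bc 18362. In contrast, Hist1h2ao had 121056 counts and its partner Hist1h2bq 251, and Hist1h2ap had 24386 and its partner Hist1h2br 32. The genes of these last pairs share most of their sequence with other genes, so the limit given above for shared sequence applies to their counts. Hist1h2bc averaged 64.0 ± 15.3 CPM in Ythdc1Δ/Δ and 70.2 ± 2.72 CPM in Ythdc1+/+ samples, and Hist1h4d averaged 39.8 ± 4.8 CPM in Ythdc1Δ/Δ and 43.3 ± 11.7 CPM in Ythdc1+/+ samples (SD, n = 3 each). Hist1h4i averaged 24.1 ± 4.43 CPM in Ythdc1Δ/Δ and 26.5 ± 0.529 CPM in Ythdc1+/+ samples, and Hist1h1d 19.0 ± 3.05 CPM in Ythdc1Δ/Δ and 22.2 ± 1.24 CPM in Ythdc1+/+ samples. In all 4 genes the genotypes overlapped. Hist1h1b, an H1 gene with no stem-loop match in its annotated transcript, averaged 29.0 ± 4.0 CPM in Ythdc1Δ/Δ and 27.7 ± 2.21 CPM in Ythdc1+/+ samples. Hist1h3d, the H3 gene with most reads, stood at 8.82, 16.7 and 20.2 CPM in Ythdc1Δ/Δ against 17.7, 15.1 and 20.3 CPM in Ythdc1+/+ samples. For Hist1h2ao the log2 fold change was -0.03 ± 0.29 and for Hist1h2ap 0.33 ± 0.42, and neither differed beyond the spread of its samples. The sign of Hist1h2ao turned without KO209 (0.24) and without WT180 (0.15), and that of Hist1h2ap without KO177 (-0.07). Without KO209 the log2 fold change of Hist1h2ap was 0.68, with an unadjusted p of 0.000596 and an adjusted p of 0.0757 by edgeR.

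**Figure D3:**
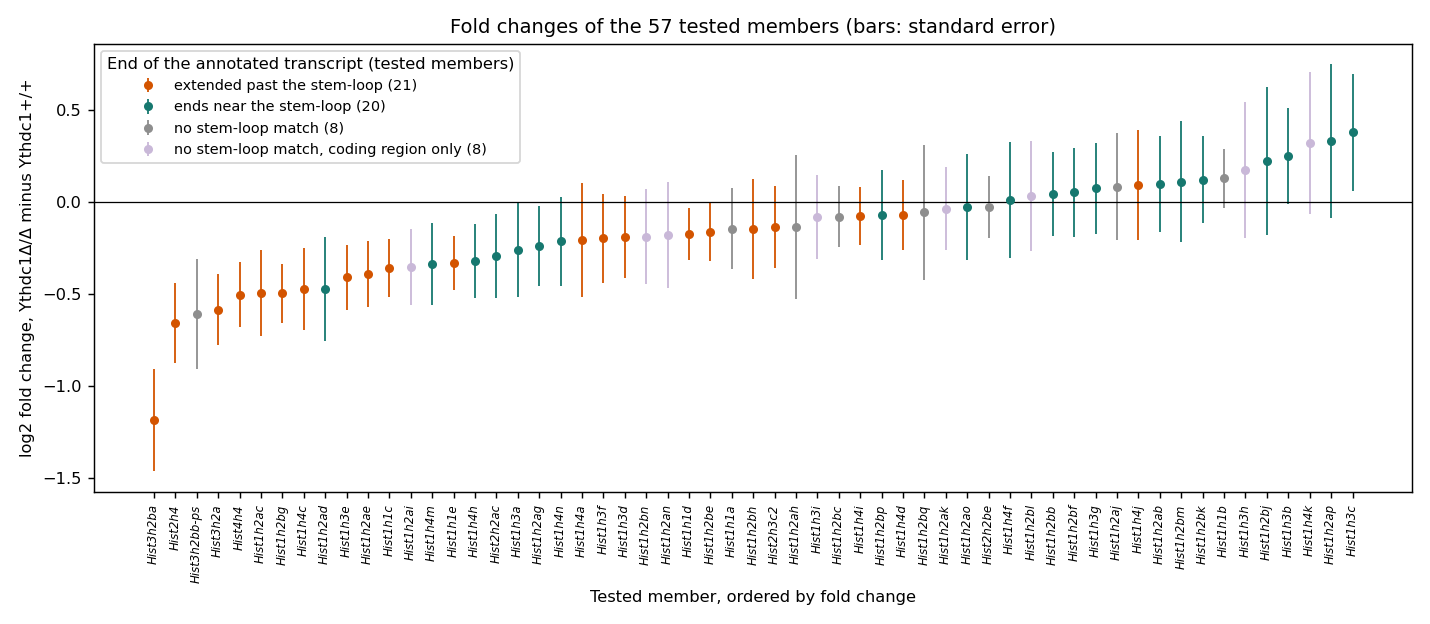
Log2 fold change (Ythdc1Δ/Δ minus Ythdc1+/+) with its standard error for the 57 tested members, ordered by size and coloured by where the annotated transcript ends. The 21 members that extend past the stem-loop hold most of the low end, with Hist3h2ba lowest at -1.19, and 20 of them are below 0.

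The members differed by where their annotated transcript ended. Of the 21 tested members with a transcript that extends past the stem-loop, 20 were lower in Ythdc1Δ/Δ, their median log2 fold change was -0.33, and all 8 members at an unadjusted p under 0.05 were among them. Of the 20 tested members that end near the stem-loop, 9 were lower, and their median was 0.03. Of the 16 with no match 11 were lower. The median was -0.06 for those annotated with the coding region alone and -0.07 for the rest, among them the pseudogenes Hist1h2aj and Hist3h2bb-ps. With each sample left out in turn, 17 to 21 of the 21 extended members were lower, with a median between -0.45 (without KO177) and -0.21 (without KO176), and the median of those that end near the stem-loop lay between -0.16 (without KO177) and 0.20 (without KO209). No test was made between these groups, which were drawn after the values had been seen. The extended members also had a higher median level, 8.82 CPM against 3.96 CPM for those that end near the stem-loop. Their annotated transcripts were mostly longer, and per kilobase of exon the median was lower in the extended group in both genotypes.

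In summed level the extended members stood at 238, 354 and 330 CPM in KO176, KO177 and KO209, against 381, 421 and 396 CPM in WT178, WT180 and WT207, with every Ythdc1Δ/Δ sample below every Ythdc1+/+ sample. The means were 307 ± 61.1 CPM in Ythdc1Δ/Δ and 399 ± 20.1 CPM in Ythdc1+/+ samples (SD, n = 3 each), or 76.9% of the Ythdc1+/+ level. The members that end near the stem-loop, 86.4% of whose counts came from Hist1h2ao and Hist1h2ap, stood at 664, 746 and 395 CPM in Ythdc1Δ/Δ and 593, 742 and 534 CPM in Ythdc1+/+ samples, which overlapped. Without Hist1h2ao and Hist1h2ap they stood at 80.2, 95.8 and 62.5 CPM in Ythdc1Δ/Δ against 80.0, 106 and 74.9 CPM in Ythdc1+/+ samples, still with overlap. KO176 was the lowest of the Ythdc1Δ/Δ samples in the extended group and KO209 in the other. The summed HSC markers were lowest in KO176 too (326 CPM, where KO177 had 472 CPM and KO209 683 CPM). The summed granulocyte genes were highest there (19500 CPM, where KO177 had 12910 CPM and KO209 12520 CPM), mainly through Mpo (9826, 5060 and 2394 CPM in KO176, KO177 and KO209). Elane and Prtn3 were also highest in KO176, but Ngp, Camp, Ltf, S100a8 and S100a9 were highest in KO209 among the Ythdc1Δ/Δ samples. The part of these differences in the result was not tested.

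By family, the H2A genes summed to 666, 778 and 451 CPM in Ythdc1Δ/Δ and 646, 799 and 601 CPM in Ythdc1+/+ samples, which overlapped. The Ythdc1Δ/Δ mean of H2A was 92.6% of the Ythdc1+/+ mean, and the difference of means (-50.4 CPM) turned to 39.8 CPM without KO209 and to 8.01 CPM without WT180. With Hist1h2ao and Hist1h2ap left out of H2A, the Ythdc1Δ/Δ mean was 75.0% of the Ythdc1+/+ mean for H2A, and it was 84.2% for H1, 85.3% for H2B, 86.0% for H3 and 84.5% for H4. Every Ythdc1Δ/Δ sample was below every Ythdc1+/+ sample for this reduced H2A sum (82.3, 128 and 119 CPM in Ythdc1Δ/Δ against 132, 163 and 143 CPM in Ythdc1+/+). The sums of the other families overlapped through KO177, which had 127 CPM for H1, 183 for H2B, 49.4 for H3 and 115 for H4, where the lowest Ythdc1+/+ sample had 125, 171, 49.1 and 104 CPM.

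**Figure D4:**
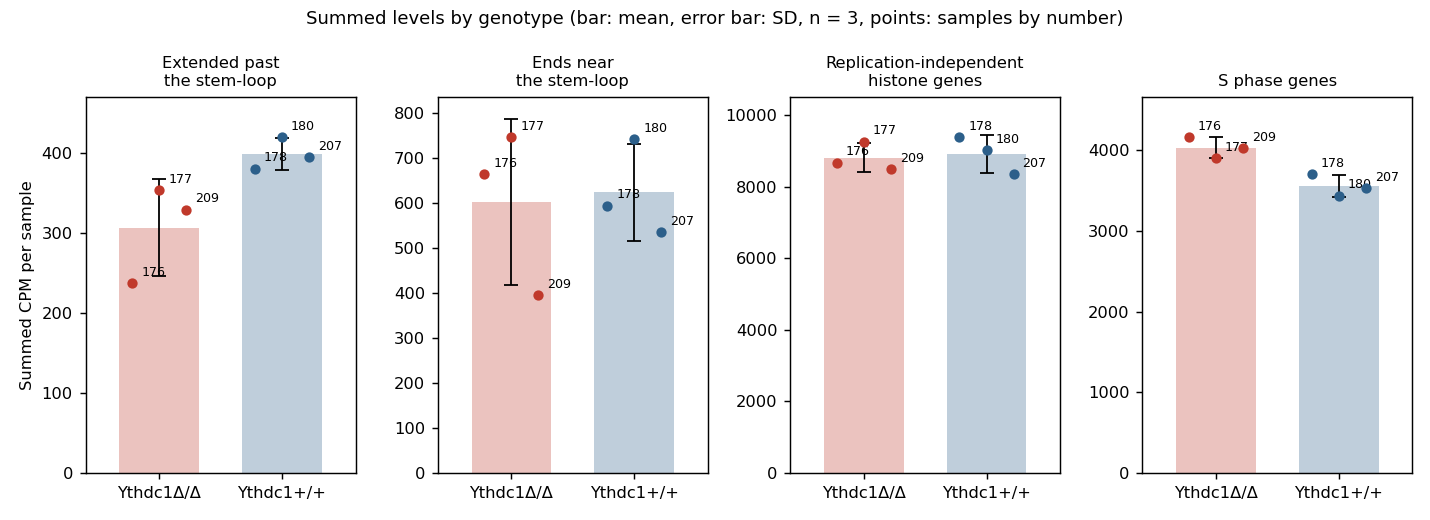
Summed CPM per sample (points, by sample number) with mean (bar) and SD (n = 3) for members that extend past the stem-loop, members that end near it, the replication-independent histone genes and the S phase genes, Ythdc1Δ/Δ left of Ythdc1+/+. The groups do not overlap in the first panel (238 to 354 CPM in Ythdc1Δ/Δ against 381 to 421 CPM in Ythdc1+/+) or in the last (3901 to 4165 CPM in Ythdc1Δ/Δ against 3439 to 3701 CPM in Ythdc1+/+), where the order is opposite. CPM here is on total counts. Division by the TMM factors of the fit would leave almost no gap between KO209 and WT178 in the last panel, so the lack of overlap there rests on this scale.

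The genes around histone supply were read from lists. None of their genes had an adjusted p under 0.05 by edgeR, where 0.137% of all tested genes did. Counts at an unadjusted p under 0.05 are given instead, a threshold at which 4.28% of all tested genes were higher and 5.2% lower, and 48.9% of all tested genes were higher at any p. Of the 16 S phase genes all 16 were higher in Ythdc1Δ/Δ, 3 of them at an unadjusted p under 0.05, with a median log2 fold change of 0.19. They summed to 4032 ± 132 CPM in Ythdc1Δ/Δ and 3558 ± 133 CPM in Ythdc1+/+ samples (SD, n = 3 each). The list was led by the ribonucleotide reductase subunits Rrm1 (454 ± 31.1 CPM in Ythdc1Δ/Δ and 341 ± 6.78 CPM in Ythdc1+/+, log2 fold change 0.47) and Rrm2 (276 ± 56.5 CPM in Ythdc1Δ/Δ and 197 ± 15.8 CPM in Ythdc1+/+, 0.55). The share of cells in S phase was not measured in these libraries. As a separate measure, the paper reports by flow cytometry a larger share of cycling and of BrdU-labelled long-term HSCs in Ythdc1Δ/Δ mice.

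Of 16 genes for the 3′ end of histone mRNAs, 11 were higher and 5 lower (median 0.08), 1 of them, the cap-binding subunit Ncbp1, at an unadjusted p under 0.05 (113 ± 2.25 CPM in Ythdc1Δ/Δ and 90.6 ± 12.8 CPM in Ythdc1+/+ samples, log2 fold change 0.37). Slbp, the stem-loop binding protein, which is also on the S phase list, stood at 377, 360 and 372 CPM in Ythdc1Δ/Δ and 415, 333 and 348 CPM in Ythdc1+/+ samples, which overlapped. Lsm10, a subunit of the U7 snRNP, had a log2 fold change of -0.27 (70.0 ± 7.49 CPM in Ythdc1Δ/Δ and 87.7 ± 8.85 CPM in Ythdc1+/+) and Cstf2, a cleavage factor, 0.23. Of 13 genes for histone gene transcription 11 were higher (median 0.09), 2 at an unadjusted p under 0.05, Ccne2, a cyclin E that activates CDK2 at S phase entry (34.7 ± 7.13 CPM in Ythdc1Δ/Δ and 25.6 ± 2.01 CPM in Ythdc1+/+, 0.48), and Nfyb, a subunit of the factor that binds CCAAT (0.26). Cdc25a, a phosphatase that activates CDK2, came next (0.16). Npat, the coactivator of histone genes, stood at 17.8, 19.8 and 34.0 CPM in Ythdc1Δ/Δ and 17.2, 24.7 and 26.04 CPM in Ythdc1+/+ samples.

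Of 15 genes of histone mRNA decay 9 were higher and 6 lower (median 0.03) and none had an unadjusted p under 0.05, the smallest being those of the uridylyltransferase Tut4 (-0.34), the exonuclease Eri1 (0.21) and the helicase Upf1 (0.29). Of 23 histone chaperones and supply genes 19 were higher (median 0.18), 4 at an unadjusted p under 0.05, among them Nasp, a chaperone of H3 and H4 (146 ± 1.14 CPM in Ythdc1Δ/Δ and 122 ± 7.55 CPM in Ythdc1+/+, 0.32), Nap1l1, a chaperone of H2A and H2B (0.28), and Mms22l (0.30). Of 11 tested replication-independent histone genes 5 were higher and 6 lower (median -0.02). The linker histone H1f0, which accumulates in cells that stop dividing, was lower at an unadjusted p under 0.05, at 147, 179 and 219 CPM in Ythdc1Δ/Δ against 258, 232 and 264 CPM in Ythdc1+/+ samples (log2 fold change -0.43 ± 0.12, edgeR adjusted p 0.293). H1fx (-0.45) and H2afv (-0.26) came next, and the log2 fold change was 0.15 for H2afz, 0.19 for H2afx and -0.04 for H3f3a.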

How the data were processed

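HSC libraries were compared between genotypes, 12 in all. The authors deposited raw counts (whole numbers of read pairs assigned to each gene), made with featureCounts 2.0.1 on mm10 with GENCODE vM23 according to the file header, without strand and without reads that fall in more than 1 gene. The 2 libraries of a sample number were summed, giving 3 samples against 3. Genes passing filterByExpr (minimum count 10, minimum total 15) were fitted with edgeR 4.0.16 in R 4.3.3 (quasi-likelihood, robust, TMM), p-values were adjusted by Benjamini-Hochberg over all 18234 genes, and the SE is derived from the F statistic. CPM uses total counts in genes. The fit was tested on simulated counts. Alternatives used DESeq2 1.42.0, limma 3.58.1, other scalings, filters and designs, and left out each sample. Transcript sequences came from GENCODE vM21, which differs from the vM23 annotation of the counts, and promoters and their coordinates from RefSeq. Figures were drawn with matplotlib 3.10.9. The members and lists were chosen with earlier results of these data known. Named were the 12 members with the highest mean CPM, members with an adjusted p under 0.05 or otherwise the 6 with the smallest p, the member with most counts in each family, and up to 3 genes with the smallest p of each list. A gene that this rule names from the S phase list is not reported here. Other members and genes named, among them Hist1h2bq, Hist3h2bb-ps, Slbp, Npat and H2afz, were chosen after their values were seen. Intervals between samples rest on 3 samples a genotype, and with 3 against 3 an exact permutation test cannot give a p below 0.1, so none was used.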

Additional observations from a re-analysis of the deposited data

How the results depend on the processing

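The main test called 25 genes over all. Counts were 751 with 12 libraries as separate samples, 717 with the replicate block for the library digit, 131 with voomLmFit, 85 with a term for the number range, 16 with upper quartile scaling, 217 with DESeq2, 15 with edgeR's legacy option, 73 with no filter and 3 with a stricter filter (minimum count 50), and 1 to 81 with a sample left out. Members called were 0 in the main test, 5 with 12 libraries as separate samples and 5 with the replicate block, and 1 (Hist3h2ba) with voomLmFit, the range term and DESeq2, and 0 to 1 with a sample left out. The median log2 fold change of the members ranged from -0.28 without KO177 to 0.00 without KO209. Left-out samples moved the log2 fold change of Hist1h2ao over -0.20 to 0.24, of Hist1h2ap over -0.066 to 0.68, of Hist1h2bc over -0.30 to 0.077, of Hist1h4d over -0.25 to 0.13, of Hist1h4i over -0.24 to 0.073 and of Hist1h3d over -0.37 to 0.050. The sign turned without KO209 for Hist1h2ao, Hist1h2bc, Hist1h4d and Hist1h4i, without WT180 for Hist1h2ao and Hist1h4d, without KO177 for Hist1h2ap and without KO176 for Hist1h3d, and the cause was not tested. With alternatives chosen after seeing the data, the median was -0.17 over the 37 tested members with at most 50% of their stretches of 100 bases shared and -0.14 over the 44 with under 20% of exon bases in other genes. Labels share no replicate numbers between genotypes.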
